A study of Homo sapiens with 4 samples.

Results

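ATF4, its partner genes and its stress targets outside amino acid transport and serine synthesis were followed in NB4-R4 cells given the CHK1 inhibitor MK-8776. The set has 10 genes, ATF4, DDIT3, TRIB3, ASNS, SESN2, PPP1R15A, VLDLR, STC2, NUPR1 and CEBPG. They were taken by name from the 17687 genes of the array, each as the feature that the platform annotation ties to that symbol alone, and all 10 were found with 1 feature each. NB4-R4 is an established cell line, derived from the promyelocytic leukaemia line NB4 and resistant to retinoic acid, the drug that makes the parent cells mature. One group was treated with MK-8776 at 4 µM for 96 h and the other with the vehicle DMSO for 96 h, with 2 arrays per group, and both groups share the resistant line, the medium and the use of live cells for RNA. CHK1 is the kinase that restrains the cell cycle when DNA replication stalls. The comparison asks which transcripts of the stress response differ after the inhibitor.

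When a cell is short of amino acids or haem, or holds unfolded protein or viral RNA, stress kinases phosphorylate the initiation factor eIF2alpha. Most translation then slows, while translation of the ATF4 mRNA increases. ATF4 is a bZIP transcription factor that pairs with C/EBP proteins and binds composite C/EBP-ATF response elements near genes of amino acid supply, redox defence and cell death. Because ATF4 is controlled largely at translation, its mRNA level need not follow its protein, and the arrays measured RNA alone. NB4 cells are promyelocytes, whose granule proteins are made in the endoplasmic reticulum.

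Of the 10 genes, 0 passed the limma test between MK-8776 and DMSO at an adjusted p under 0.05, which 3.69% of all genes did. An unadjusted limma p under 0.05 held for 6 of the 10, against 18.8% of all genes. ATF4 mRNA itself stayed between 14.27 and 14.30 on the log2 scale in all 4 arrays. TRIB3 and PPP1R15A, feedback inhibitors of the pathway, lay 2.43-fold and 2.08-fold above DMSO and just missed the threshold. VLDLR and STC2, a lipoprotein receptor gene and a secreted glycoprotein gene, lay below DMSO. ASNS, the asparagine synthesis gene that is a classic ATF4 target, CEBPG and NUPR1 differed by no more than 0.24 in either direction. The genes thus did not share a direction, with 6 changes above 0 and 4 below. Among all genes 8941 were above 0 and 8746 below. The groups overlapped for ATF4 (-0.005) and ASNS (-0.19) among the 4, and for NUPR1 (0.20) among the 6.

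Promoter sequences from RefSeq (GRCh38.p14, 250 bases before to 50 after each transcript start) were found for 9 of the 10 genes, in 15 windows, and were searched on both strands for the C/EBP-ATF element TGATGNAA and for the cyclic AMP response element core TGACGT. The stretches below are shown because they hold the only matches among the members. ASNS and CEBPG had small differences, and PPP1R15A lay 2.08-fold above DMSO without passing the limma test. TRIB3 and VLDLR, which also came near the threshold, held no match. Whether a motif goes with a change was not tested. Capitals mark the motif letters, and each stretch is written 5′ to 3′ on the strand of its gene.

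ASNS: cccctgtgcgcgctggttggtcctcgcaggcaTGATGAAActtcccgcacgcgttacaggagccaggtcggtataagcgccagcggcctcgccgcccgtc

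CEBPG: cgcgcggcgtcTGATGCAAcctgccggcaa

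PPP1R15A: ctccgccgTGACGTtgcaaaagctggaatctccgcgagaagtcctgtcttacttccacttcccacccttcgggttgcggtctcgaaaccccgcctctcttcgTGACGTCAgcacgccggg

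The ASNS stretch is chr7:97872409-97872508 on the minus strand, within the gene as annotated, and its element begins 68 bases before one of the annotated starts. The CEBPG stretch is chr19:33374060-33374089 on the plus strand, within the gene, and its element begins 42 bases before the second of the annotated starts. The PPP1R15A stretch is chr19:48872261-48872380 on the plus strand, with motifs that begin 152 and 58 bases before the start. The second of these overlaps a match on the opposite strand, so that together they read TGACGTCA. TGATGNAA occurs in 3.62% of all 35116 promoter windows and TGACGT in 7.98%. Counted by gene, TGATGNAA was held by 2 of the 9 members, against 4.46% of all 27305 genes with a window. TGACGT was held by 1 of the 9, against 9.64% of those genes and 11.7% of the tested ones. A match is a description of the letters, and windows of this length leave out elements farther away.

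ATF4 (chromosome 22, 39520559 to 39522686, GRCh38) measured 14.27 and 14.29 in the MK-8776 arrays, against 14.30 and 14.27 in the DMSO arrays, on the log2 scale of RMA expression. The groups overlapped. The change, MK-8776 minus DMSO, was -0.005 (SE 0.20, 95% interval -0.47 to 0.46, limma adjusted p = 0.992). The interval covers folds of 0.724 to 1.37, so a difference as large as 2-fold in ATF4 mRNA lies outside it. CEBPG (chromosome 19, 33373709 to 33382686), a C/EBP protein without a classical activation domain that pairs with ATF4, measured 10.82 and 10.87 with MK-8776, against 10.67 and 10.54 with DMSO. Both MK-8776 arrays were higher than both DMSO arrays, by a gap of 0.15, but the change of 0.24 was near its error (SE 0.20, interval -0.23 to 0.71, limma adjusted p = 0.603).

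DDIT3 (chromosome 12, 57516588 to 57520517) encodes CHOP, a C/EBP relative that ATF4 induces and that favours cell death under lasting stress. It measured 7.96 and 7.58 with MK-8776, against 6.66 and 7.46 with DMSO. The groups were 0.12 apart, less than the 0.80 between the DMSO arrays. Its change was 0.71 (SE 0.30, interval 0.03 to 1.39) and did not pass (limma adjusted p = 0.245). One DMSO array set much of this value, which was 0.31 without DMSO replicate 1 and 1.11 without DMSO replicate 2.

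**Figure D1:**
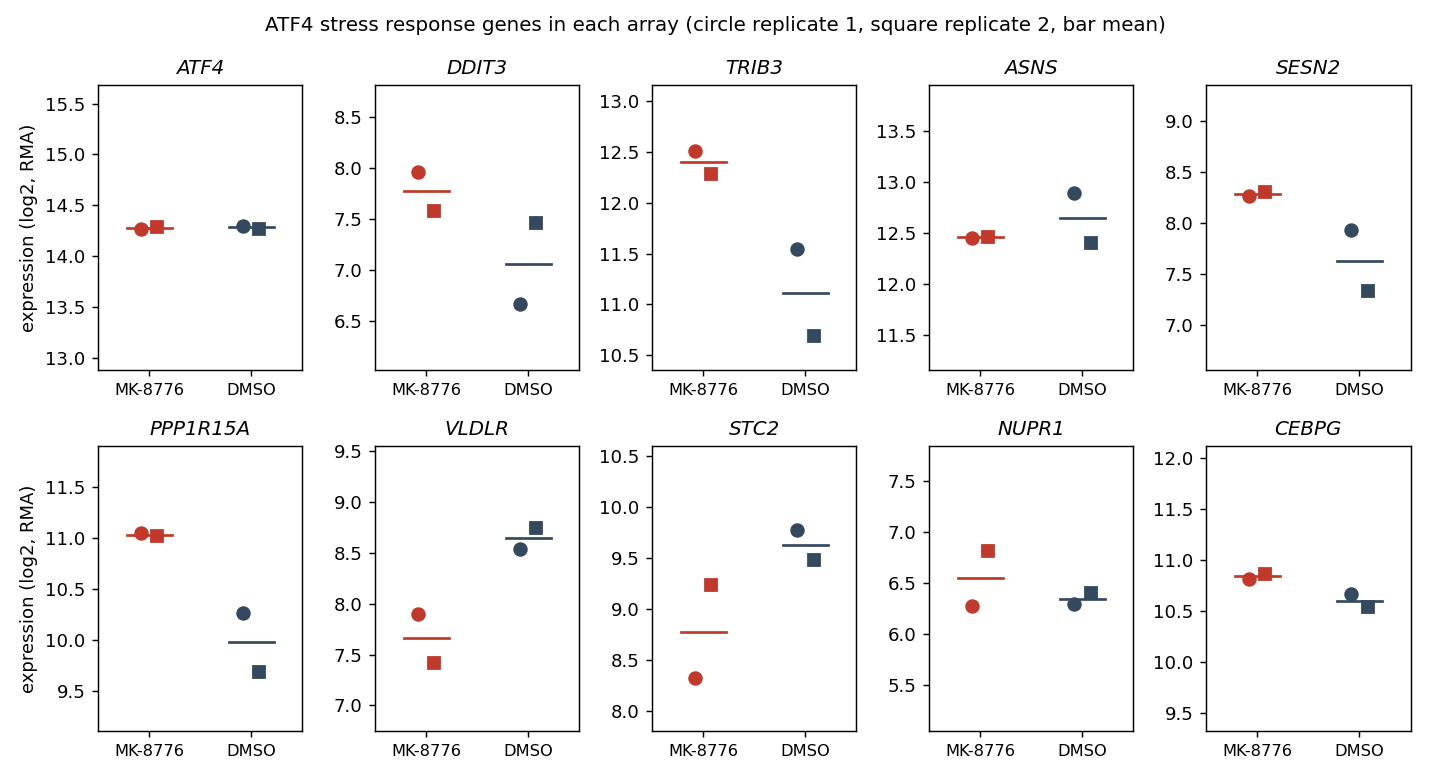
Expression of the 10 genes on the log2 scale (vertical axes, all of the same height in log2 units) in the MK-8776 and DMSO arrays; circles are replicate 1, squares replicate 2 and bars the group mean. ATF4 is level in all 4 arrays, TRIB3 and PPP1R15A lie higher in both MK-8776 arrays and VLDLR lower.

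TRIB3 (chromosome 20, 380760 to 397559) encodes a pseudokinase that ATF4 and CHOP induce and that in turn binds ATF4 and restrains it. It measured 12.51 and 12.28 with MK-8776, against 11.54 and 10.69 with DMSO. Both MK-8776 arrays lay at least 0.74 above both DMSO arrays, and the DMSO arrays differed from each other by 0.85. The change of 1.28, a fold of 2.43 (interval 1.52 to 3.88), was the largest of the 10 in size (SE 0.29, limma adjusted p = 0.0556). It passed with a variance trend (0.00958), with a robust trend (0.0106), among features above the median level (0.0371) and after median centring (0.0439). It did not pass after quantile normalization (0.0694) or with the replicate number as a block (0.0699). Testing all features (0.0673) or the mean of a gene's features (0.0560) gave no call either. The change was 1.71 without DMSO replicate 1 and 0.855 without DMSO replicate 2.

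PPP1R15A (chromosome 19, 48872421 to 48876058) encodes GADD34, the stress-induced subunit that directs protein phosphatase 1 to eIF2alpha and so restores translation. It measured 11.05 and 11.02 with MK-8776, against 10.27 and 9.69 with DMSO. The MK-8776 arrays were 0.03 apart and 0.75 above the higher DMSO array. The change of 1.06, a fold of 2.08 (interval 1.41 to 3.07), missed the threshold (SE 0.25, limma adjusted p = 0.0585). It passed with a variance trend (0.0159), with a robust trend (0.0168), among features above the median level (0.0354) and after median centring (0.0454). It did not pass after quantile normalization (0.0655) or with the replicate number as a block (0.0859). Testing all features (0.0698) or the mean of a gene's features (0.0587) gave no call either. The change was 1.345 without DMSO replicate 1 and 0.765 without DMSO replicate 2.

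SESN2 (chromosome 1, 28259518 to 28282491) encodes sestrin 2, a leucine-binding inhibitor of mTORC1 signalling that is induced by stress. It measured 8.26 and 8.30 with MK-8776, against 7.93 and 7.33 with DMSO. The groups did not overlap, with a gap of 0.33 between them and a distance of 0.60 between the DMSO arrays. Its change of 0.65 (SE 0.25, interval 0.08 to 1.22) did not pass (limma adjusted p = 0.208), and was 0.95 without DMSO replicate 1 and 0.35 without DMSO replicate 2.

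ASNS (chromosome 7, 97851677 to 97928441) encodes asparagine synthetase and carries the element printed above. It measured 12.45 and 12.46 with MK-8776, against 12.89 and 12.40 with DMSO. The MK-8776 values lay between the DMSO values, so the groups overlapped. The change was -0.19 (SE 0.23, interval -0.73 to 0.35, limma adjusted p = 0.735). NUPR1 (chromosome 16, 28532708 to 28538974), a small stress-induced chromatin protein gene, measured 6.28 and 6.82 with MK-8776, against 6.30 and 6.40 with DMSO. One MK-8776 array lay above both DMSO arrays and the other just below them, and the change was 0.20 (SE 0.24, interval -0.35 to 0.75, limma adjusted p = 0.729).

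VLDLR (chromosome 9, 2621787 to 2660056) encodes the very low density lipoprotein receptor, which ATF4 has been shown to induce under endoplasmic reticulum stress. It measured 7.90 and 7.42 with MK-8776, against 8.54 and 8.74 with DMSO. Both MK-8776 arrays were lower, by a gap of 0.64. The change was -0.98 (SE 0.24, interval -1.53 to -0.43), so that DMSO over MK-8776 gave a ratio of 1.97, and it missed the threshold (limma adjusted p = 0.0662). It passed with a variance trend (0.0455), with a robust trend (0.0455) and among features above the median level (0.0390). It did not pass after quantile normalization (0.0942) or median centring (0.0774), or with the replicate number as a block (0.112). Testing all features (0.0781) or the mean of a gene's features (0.0665) gave no call either.

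STC2 (chromosome 5, 173314723 to 173328414) encodes stanniocalcin 2, a secreted glycoprotein that is induced through PERK and ATF4. It measured 8.32 and 9.23 with MK-8776, against 9.77 and 9.48 with DMSO. The MK-8776 arrays were 0.91 apart, the widest split within a group among the 10 genes, and both were below DMSO. The change was -0.85 (SE 0.31, interval -1.56 to -0.14, limma adjusted p = 0.184). Leaving out MK-8776 replicate 1 gave -0.395, and leaving out MK-8776 replicate 2 gave -1.31.

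**Figure D2:**
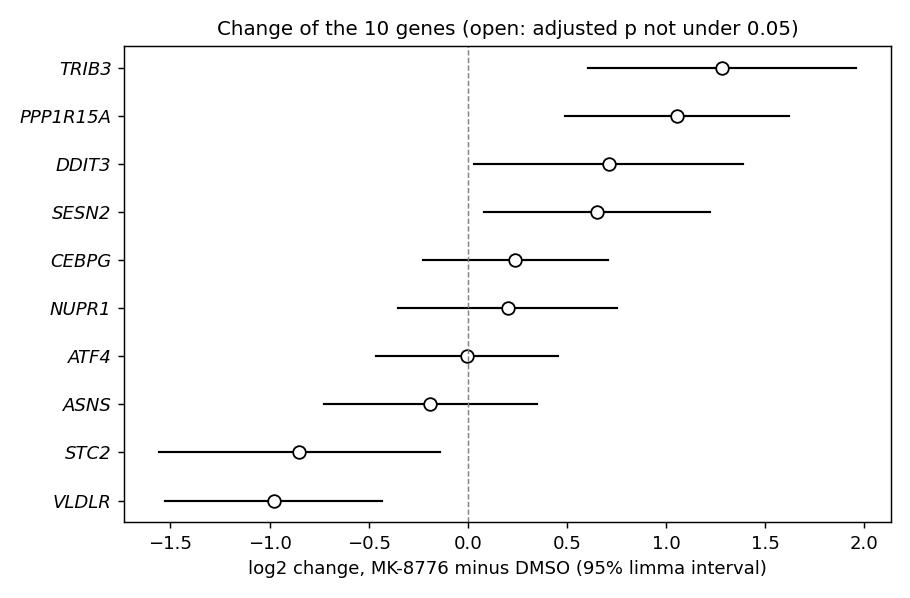
Log2 change, MK-8776 minus DMSO, of each of the 10 genes (horizontal axis) with its 95% limma interval as a line; open points mark an adjusted p at or above 0.05, which holds for all 10. The intervals of TRIB3, PPP1R15A, DDIT3 and SESN2 lie above 0, those of VLDLR and STC2 below 0, and those of the other genes include 0.

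Set against the whole array, 1.66% of the 17687 genes were called higher and 2.02% lower by the same limma fit, and 0 of the 10 genes was called in either direction. At an unadjusted p under 0.05 the count was 6 of 10, TRIB3, PPP1R15A, SESN2 and DDIT3 above DMSO and VLDLR and STC2 below, against 8.61% higher and 10.2% lower, 18.8% together, among all genes. The MK-8776 and DMSO arrays did not overlap in 7 of the 10, with 5 higher and 2 lower, against 24.0% higher and 24.2% lower among all genes. The median change of the 10 was 0.22 against 0.005 for all genes, and the median size of change was 0.68 against 0.245. The smallest change in size among called genes was 0.925, so TRIB3, PPP1R15A and VLDLR were past that size while their error kept them out. With a variance trend 3 of the 10 passed, 2 higher and 1 lower, against 3.09% and 3.61% of all genes. The other fits in which some of the 10 passed called 6.57% of all genes with a robust trend, 3.88% after median centring and 10.3% of those above the median level. The genes were chosen with earlier results of these data known, so these counts are a description of the set.

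**Figure D3:**
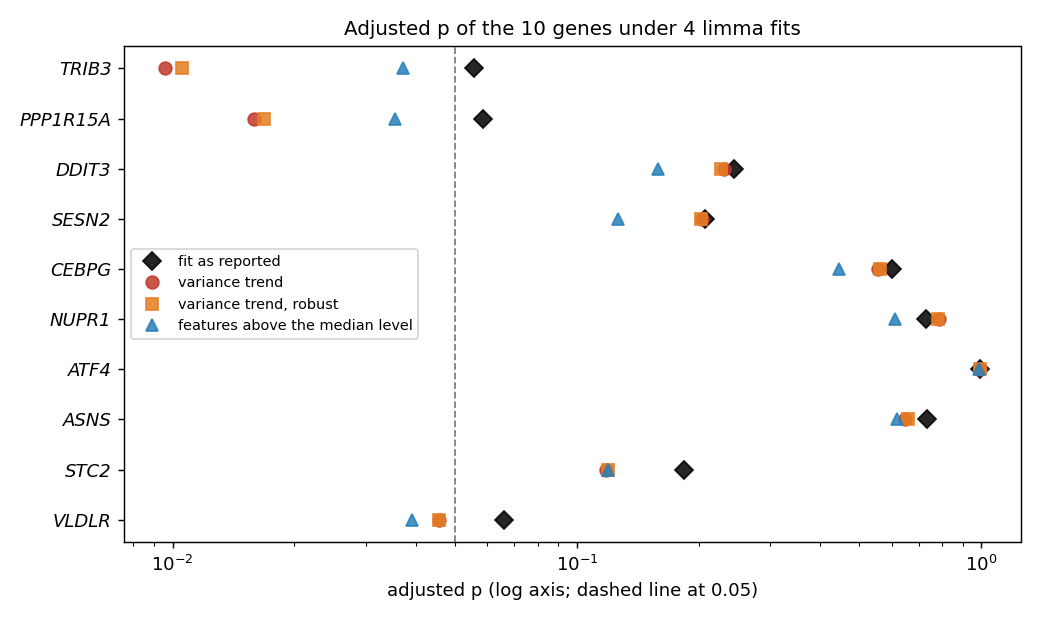
Adjusted p of each of the 10 genes (horizontal log axis, dashed line at 0.05) in the limma fit as reported, with a variance trend, with a robust variance trend, and among features above the median level. TRIB3, PPP1R15A and VLDLR cross the line between fits, and the other 7 genes stay to its right in all 4. Fits not drawn include quantile normalization, the replicate block, all features and the mean of a gene's features. In these TRIB3, PPP1R15A and VLDLR did not pass. Median centring is not drawn either, and VLDLR did not pass in it.

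Genes around ATF4 were grouped in lists. Upstream of ATF4, a list was made of eIF2alpha kinases, phosphatase subunits and their regulators, together with the subunits of eIF2 and eIF2B. It gave 0 higher and 1 lower of 21 measured genes, with a median change of -0.20. The lower count was 2 with either variance trend. PPP1CC, a catalytic subunit of protein phosphatase 1 that PPP1R15A can recruit, fell by 0.95 (15.82 and 15.78 with MK-8776, against 16.76 and 16.74 with DMSO, limma adjusted p = 0.0415). That call was lost when all features were tested (0.0507), the arrays were quantile normalized (0.0646) or the replicate number was a block (0.0771). The kinase genes had changes of -0.17 for EIF2AK1 (the haem sensor HRI), 0.22 for EIF2AK2 (the RNA sensor PKR), -0.20 for EIF2AK3 (PERK) and -0.195 for EIF2AK4 (the amino acid sensor GCN2), and none of them passed in the limma fit. PPP1R15B, the constitutive relative of PPP1R15A, was at 0.295 and did not pass either.

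Among 17 measured bZIP partners and relatives of ATF4, 1 was higher and 0 lower, with a median change of 0.22. FOSL1, an AP-1 subunit gene, rose by 1.43 (9.09 and 9.22 with MK-8776, against 8.21 and 7.25 with DMSO, limma adjusted p = 0.0463). Its call was lost when all features were tested (0.0570) or the replicate number was a block (0.0895). The DMSO arrays were 0.96 apart, and the change was 1.91 without DMSO replicate 1 and 0.945 without DMSO replicate 2. CEBPB, a partner of ATF4, was at 0.35, and ATF3, a target that represses in turn, measured 7.24 and 7.51 with MK-8776, against 7.40 and 6.91 with DMSO, a change of 0.22 that did not pass.

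Of 24 other measured targets of ATF4 and CHOP, 2 rose, 2 fell and 20 did not pass, with a median change of 0.02. NIBAN1, a stress-induced gene, rose by 1.33 (limma adjusted p = 0.0405, lost at 0.0503 when all features were tested), and MAP1LC3B, which encodes the autophagosome protein LC3B, rose by 1.11 (limma adjusted p = 0.0292). EIF4EBP1, which encodes the translation repressor 4E-BP1, fell by 1.30 (limma adjusted p = 0.0272), and ALDH18A1, a proline synthesis gene, fell by 1.15 (limma adjusted p = 0.0292). CHAC1, a glutathione-degrading enzyme gene that ATF4 induces, measured 5.45 and 4.53 with MK-8776, against 4.88 and 4.54 with DMSO, so its groups overlapped (change 0.28). DDIT4, which encodes the mTORC1 inhibitor REDD1, was at -0.58 and did not pass.

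The amino acid arm was mixed as well. Of 14 measured genes of transport and serine synthesis, 1 rose and 1 fell, and the median was -0.11. SLC7A11, the cystine transporter gene, rose by 3.11 (limma adjusted p = 0.00785). It measured 13.74 and 13.23 with MK-8776, against 11.02 and 9.74 with DMSO. Its change was 3.745 without DMSO replicate 1 and 2.465 without DMSO replicate 2. PHGDH, the first enzyme gene of serine synthesis, fell by 1.17 (limma adjusted p = 0.0382). PSPH, the last enzyme gene of serine synthesis, was at 1.05 and did not pass (8.87 and 8.75 with MK-8776, against 8.0 and 7.52 with DMSO, limma adjusted p = 0.0507, named after its values were seen). The list's higher count was 2 after median centring or above the median level and 3 with either variance trend, and its lower count was 1 in each of these fits.

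Close relatives of the members gave 1 rise and 1 fall of 10 measured. TRIB2, a second tribbles pseudokinase gene, rose by 1.06 (7.39 and 7.09 with MK-8776, against 6.08 and 6.28 with DMSO, limma adjusted p = 0.0388), in the direction of the TRIB3 values, while TRIB1 was at -0.175. SESN3, a sestrin gene under FOXO control, fell by 1.89 (3.82 and 4.85 with MK-8776, against 6.14 and 6.30 with DMSO, limma adjusted p = 0.0228). One of its MK-8776 values was below the lower quartile of the table (3.97) and there is no detection call, so the size of its fall is uncertain. SESN2 lay above DMSO, and SESN1 was at -0.435. Whether SESN2 and SESN3 differ in their change was not tested. In the sestrin and mTORC1 list 0 of 18 rose and 2 fell, SESN3 and NPRL2, a subunit gene of the GATOR1 complex that inhibits mTORC1, which fell by 1.27 (limma adjusted p = 0.0344).

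The ATF6 and IRE1 arms of the unfolded protein response, which accompany ATF4 when the endoplasmic reticulum is the source of stress, gave 0 calls of 14 in the limma fit, while 4 had an unadjusted p under 0.05, against 18.8% of all genes. With a variance trend 1 was called higher and 1 lower, and with a robust trend or above the median level 0 were higher and 1 lower. PDIA6 (a disulphide isomerase gene) was at -0.76 and DNAJB11 (a co-chaperone gene) at 0.68, the 2 largest changes of the list. The list's median was 0.15, and HSPA5, which encodes the chaperone BiP, was at 0.15.

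**Figure D4:**
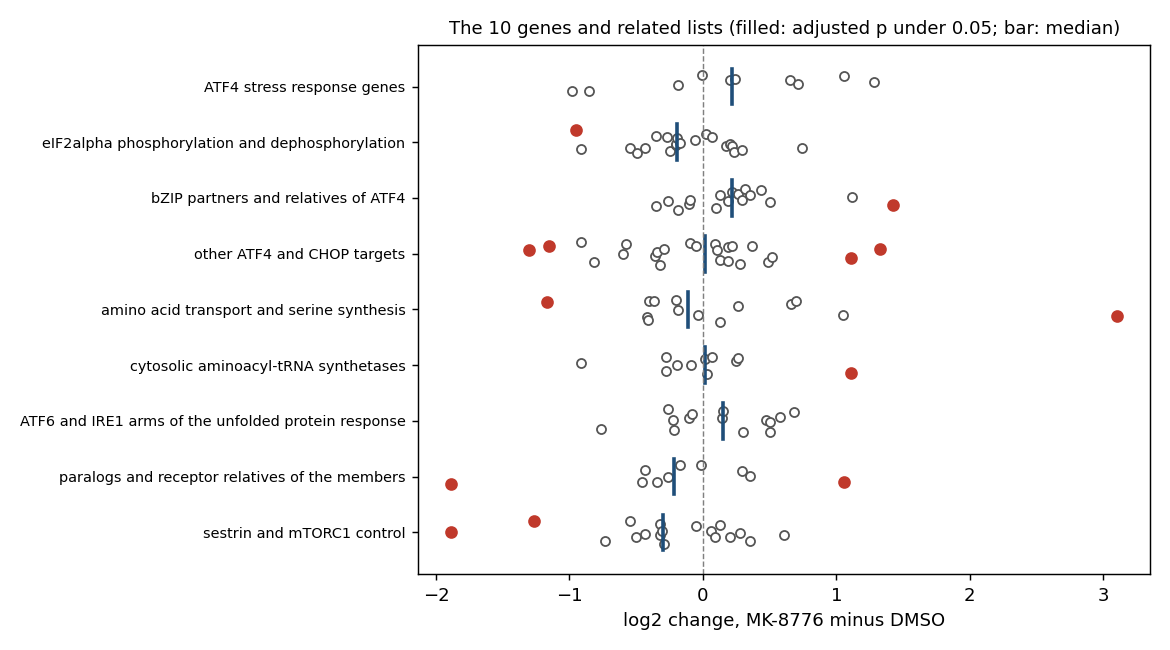
Log2 change, MK-8776 minus DMSO (horizontal axis), of the 10 genes and of each measured gene of 8 related lists; filled points passed the limma fit at an adjusted p under 0.05, open points did not, and blue bars are medians. The medians lie between -0.30 and 0.22, and the filled points fall on both sides of 0.

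The arrays of a group correlated at 0.993 in both groups, against 0.981 to 0.989 between groups, with a median SD of 0.170 for MK-8776 and 0.163 for DMSO. MPO, the defining granule enzyme of promyelocytes, was present in all arrays (14.81 and 15.36 with MK-8776, against 16.09 and 16.27 with DMSO). The mean log2 level of the 6 measured promyelocyte and myeloid markers was 9.11 and 9.60 with MK-8776, against 9.98 and 10.76 with DMSO. Of these markers 2 fell, CTSG and PRTN3, while the groups overlapped for AZU1 (-1.20), CD38 (0.10) and SPI1 (0.275). Over the 6 monocyte and macrophage markers the mean level was 5.51 and 5.58, against 4.89 and 4.96, and 2 rose, C1QA and CD14. Of these calls 1 was kept after quantile normalization or when all features were tested, and 0 with the replicate block. CSF1R was at -0.175, and FCGR3A and MRC1 stayed below that lower quartile in every array. Over 5 lymphoid markers it was 7.60 and 7.50, against 7.76 and 7.61, with 1 rise and 1 fall, and MS4A1 was below it in every array. Over 5 erythroid and megakaryocyte markers it was 5.38 and 5.64, against 5.20 and 5.30, again with 1 rise and 1 fall. With the replicate block the lymphoid markers gave 0 higher and 0 lower, and the erythroid and megakaryocyte markers 0 higher and 1 lower. The promyelocyte and myeloid markers gave 2 lower in that fit. The part of these shifts in the values of the 10 genes was not tested, and in bulk RNA fewer cells of a type and less RNA per cell cannot be told apart.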

How the data were processed

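The deposited values are log2 expression values, made by the authors with RMA, per the submitters' processing notes, with genome build hg38. The log2 scale was read from the values (2.16 to 18.54, array medians 5.76 to 5.79). If that base were wrong, the folds would change. RMA settings and array batches were not given in the sources used here, there is no detection call, and the number of arrays limits the precision. Replicates are biological per the labels, with no word on separate cultures, so p-values cover only the spread between these samples, which may be technical. Of 21448 features, 17709 had 1 gene symbol, 0 several and 3739 none. All 17709 were matched to RefSeq (GRCh38.p14) by gene number. For 20 genes with several features the highest mean was taken, leaving 17687 genes.

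The values were tested with limma 3.58.1 under R 4.3.3, by a two-sided moderated test (lmFit, then eBayes) on all genes unfiltered, as MK-8776 minus DMSO. P-values were adjusted by Benjamini-Hochberg over the 17687 genes, with a threshold of 0.05. The fit has 2 residual and 6.30 prior degrees of freedom. With 2 arrays per group the smallest exact permutation p is 0.333. The 10 members and 12 lists were chosen with earlier results of these data known. Named are all members, up to 4 called genes per list or else the 2 largest changes, and a few genes given for their role. PSPH and LARS1, just short of the threshold, were named outside this rule. Some marker genes were named for their level, after their values were seen. List genes without a single-symbol feature were not analysed here.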

Additional observations from a re-analysis of the deposited data

How the results depend on the processing

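Alternatives were quantile normalization, median centring, a variance trend, a robust trend, a replicate block, the mean of a gene's features, testing all features or those above the median level, and leaving out each array. Of the 10 genes, the limma fit called 0 higher and 0 lower. The higher count was 2 (TRIB3 and PPP1R15A) after median centring, above the median level, with a variance trend and with a robust trend. The lower count was 1 (VLDLR) under the last 3 of these. No array left out gave a call among the 10, and their median change then ran from 0.10 to 0.37. Over all genes, 294 were higher and 358 lower. With a variance trend these counts were 547 and 638, with a robust trend 530 and 632, and above the median level 538 were lower. Leaving out 1 array gave 0 to 23 higher and 0 to 11 lower, with 1815 to 3017 genes at an unadjusted p under 0.05, and 0 calls in all 12 lists. With either DMSO array left out the fit called 0 genes, with MK-8776 replicate 1 left out 7 and with MK-8776 replicate 2 left out 34. These fits leave 1 array in a group and call few genes anywhere, so their lost calls say little of single genes. The changes of PPP1CC (-0.97 to -0.93) and MAP1LC3B (1.02 to 1.2) hardly moved in them, while that of SESN3 ran from -2.40 to -1.37.

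The change of ATF4 (-0.005) was -0.094 after quantile normalization and turned to 0.045 after median centring. It ran from -0.02 to 0.01 as each array was left out, above 0 without DMSO replicate 1 (0.01) or MK-8776 replicate 1 (0.005). Over these fits the change of ASNS ran from -0.435 to 0.055, above 0 without DMSO replicate 1, and that of NUPR1 from -0.07, without MK-8776 replicate 2, to 0.47. Replicate numbers 1 and 2 occur in both groups, but the labels tie them to nothing shared. Same-numbered arrays deviated together with a correlation of 0.139 across genes. With the replicate block 133 genes were higher and 176 lower, 0 of the 10 passed, and 7 of the 12 called genes named outside the 10 and the marker lists did not pass, PHGDH (adjusted p = 0.0581), MAP1LC3B (0.0603), WARS1 (0.0677), ALDH18A1 (0.0704), PPP1CC (0.0771), TRIB2 (0.0822) and FOSL1 (0.0895).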

Other observations

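The cytosolic aminoacyl-tRNA synthetases, which charge tRNAs with amino acids and many of which are known ATF4 targets, gave 1 rise and 0 falls of 11 measured genes, with a median change of 0.02. WARS1, the tryptophan enzyme gene, which interferon also induces, rose by 1.11 (15.64 and 15.48 with MK-8776, against 14.68 and 14.22 with DMSO, limma adjusted p = 0.0405). Its call was lost with all features tested (0.0503) or with the replicate block (0.0677). LARS1, the leucine enzyme gene, was at -0.915 and did not pass (limma adjusted p = 0.0514). The list's lower count was 1 after quantile normalization, above the median level and with either variance trend. TGATGNAA stood in the promoter window of 6 of the 9 measured synthetase genes that had one, AARS1, CARS1, GARS1, IARS1, NARS1 and TARS1. Their changes ran from -0.195 to 0.26 and none passed in the limma fit. WARS1 was not among the 6. Over the whole array, 512 of 14250 tested genes with a window held the motif (3.59%), of which 6 were called higher (1.17%) and 10 lower (1.95%), with a median change of 0.02.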
